A study of Mus musculus with 36 samples.

Results

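The tumors described here grew from 66cl4 cells in NSG mice. 66cl4 is a mouse mammary carcinoma line, and NSG mice (written in the labels as NOD/SCID/Ifrg2r -/-) lack T, B and NK cells while keeping macrophages, neutrophils and stroma. The 9 tumors, 3 titled Control and 6 titled Bptf KD, were chosen by line, host and title from 36 tumors of 67NR or 66cl4 cells in NSG or BALB/c mice. Female mice aged 6 to 8 weeks were injected in the fourth mammary fat pad, and the tumors were taken on day 28. All cells had been infected with a retrovirus for a short hairpin RNA (shRNA) and selected with puromycin, the controls with a control hairpin and the BPTF KD cells with 1 of 2 hairpins against *Bptf*. The study's table for these tumors lists both hairpins in its column headings, while the labels do not say which tumor carries which. The hairpin was not used, the 6 BPTF KD tumors were counted as independent, and the p values reflect the spread between tumors. The question is which genes differed with BPTF KD where the host has no lymphocytes. Tumor cells and host cells are both of mouse, and in whole tumors fewer cells of a type and less RNA per cell cannot be told apart.

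BPTF is the largest subunit of NURF, a complex that slides nucleosomes with the help of an ISWI ATPase, and it binds histone marks found at active promoters. Genes near NURF may be turned up or down when it is lost. Without T, B and NK cells, a tumor in such a host can hold carcinoma cells, myeloid cells, fibroblasts, vessels and parts of the fat pad and skin.

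Values are log2 intensities from Affymetrix arrays, normalized by RMA and read for 12394 genes, each from its brightest probe set. A difference is the mean of BPTF KD tumors minus that of controls on the log2 scale, with the standard error (SE) of limma, a linear model that pools the spread over genes. Correlations between the 9 arrays ran from 0.9806 to 0.9961. Medians per array were 7.08 to 7.16 in controls and 7.05 to 7.14 with BPTF KD. The gap between the 3′ and 5′ actin probe sets, which grows as RNA is degraded, was 1.23, 1.38 and 1.24 in controls and 1.37, 1.48, 1.45, 1.22, 0.94 and 1.07 in BPTF KD tumors 1 to 6. The mean of actin and *Gapdh* was 0.643 in the controls and 0.615 in BPTF KD tumors (exact permutation p = 0.762, two-sided). The group means hide a split. BPTF KD tumors 1 to 3, at 0.7 to 0.755, lay above every control (0.615 to 0.69), and tumors 4 to 6, at 0.45 to 0.575, lay below. Of the defining markers, the macrophage genes averaged 11.75 to 11.96 in controls and 11.42 to 12.06 with BPTF KD. Epithelial markers averaged 7.79 to 9.28 in controls and 7.47 to 8.12 with BPTF KD. Among them *Krt8*, a keratin of simple epithelia, was at 13.18 and 13.20 in the group means. Neutrophil markers averaged 9.88 to 10.44 in controls and 9.33 to 10.43 with BPTF KD, and endothelial markers 5.78 to 6.67 and 6.03 to 6.52. The measured T cell markers averaged 5.46 to 5.64 in controls and 5.56 to 5.74 with BPTF KD, against 6.5 in 66cl4 controls of BALB/c mice. NK markers averaged 5.59 to 5.64 and 5.71 to 5.98, against 6.85, while B cell markers averaged 5.30 to 5.43 and 5.30 to 5.81, against 5.35. Fibroblast markers averaged 8.98 to 10.04 and 8.78 to 9.78, adipocyte markers 9.89 to 12.48 and 10.55 to 11.59, and skeletal muscle markers 4.99 to 6.71 and 5.14 to 6.82. The defining markers Lck, Klrb1c and Plin1 were not measured here.

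*Bptf*, the targeted gene, was at 9.15, 9.18 and 9.14 in the controls by its brightest probe set. The BPTF KD tumors were at 8.73, 8.86, 8.93, 8.71, 9.15 and 8.56. Tumors 1 to 4 and 6 lay below every control, and the tumor labelled BPTF KD replicate 5 lay within the controls. The difference was -0.33 ± 0.12 SE (exact permutation p = 0.0595 over 84 splits, adjusted over 7 tests 0.208, adjusted p = 0.584 by limma). Without replicate 5, left out for its *Bptf* level, it was -0.40, a value given with no test.

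The other probe sets of *Bptf* did not all point one way. The probe set with a control mean of 7.59 was at -0.38 ± 0.24 SE and that with a control mean of 5.01 at -0.29 ± 0.19 SE, and on both the tumor labelled replicate 5 was the highest of all 9, at 8.09 and 5.38. The probe set with a control mean of 6.38 was higher in 6 of 6 BPTF KD tumors, at 6.54 to 6.82 against 6.30 to 6.52 in the controls (0.30 ± 0.09 SE, exact permutation p = 0.0119, adjusted over 7 tests 0.0833). Which transcripts each probe set reads was not examined. The label of replicate 5 therefore goes against its *Bptf* level on 3 of 4 probe sets, and the main counts are given with and without this tumor.

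**Figure D1:**
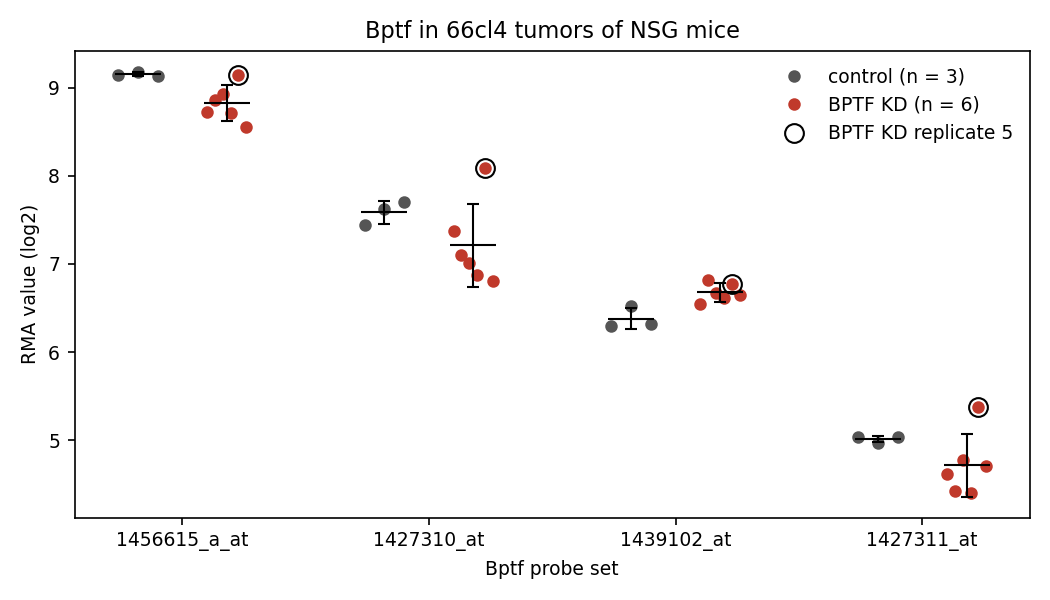
Level of *Bptf* (RMA, log2) by probe set in each control and BPTF KD tumor, with bars for the mean and SD (n = 3 and 6). The circled tumor, BPTF KD replicate 5, lies at 9.15 on the brightest probe set, within the controls, while the probe set at 6.30 to 6.82 is higher in all BPTF KD tumors.

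The partners of BPTF were near their control levels. *Smarca1*, the ISWI ATPase of NURF, was at a low level, 4.06 in controls and 3.93 with BPTF KD (-0.13 ± 0.16 SE). *Smarca5*, the other ISWI ATPase, was at 0.02 ± 0.12 SE, and the histone-binding subunits *Rbbp4* and *Rbbp7* were at 0.07 ± 0.08 SE and 0.05 ± 0.12 SE. *Smarca5* and *Rbbp7* changed sign under several other settings. Of 25 measured members of other remodeling complexes, *Ep400* had an unadjusted p under 0.05 (0.30 ± 0.10 SE), and the list median was -0.05.

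Across all genes, none passed an adjusted p of 0.05 by limma (0 of 12394, or 0.0%; the smallest adjusted p was 0.419). At an unadjusted p under 0.05, 664 genes were higher (5.36%) and 288 lower (2.32%). Some of these pass by chance, and they are given below as values rather than as changes. In 411 genes (3.32%) all 6 BPTF KD tumors lay above all 3 controls, and in 130 (1.05%) all lay below. Counts of list members given below are to be read beside these shares of all genes. The lists were chosen with earlier results of these data known, so such counts are a description. Without the tumor labelled replicate 5, 0 genes passed after adjustment, and 1077 were higher and 507 lower at an unadjusted p under 0.05, among them 631 of the 664 and 251 of the 288. Without control 2, 442 were higher, and without control 1, 469 were lower. With array weights, which gave control 2 a weight of 7.19 and the other tumors 0.27 to 1.55, 1389 genes passed after adjustment, so that count rests largely on 1 control.

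The direction went with the level of the gene. The genes were split by their mean over the 9 tumors into 4 bins of equal size. The dimmest bin (mean 2.94 to 5.51) had a median difference of 0.09, with 318 higher and 37 lower at an unadjusted p under 0.05. In the next bin the median was 0.05, with 284 higher and 90 lower. The third bin was at -0.05 with 39 higher and 113 lower, and the brightest at -0.02 with 23 higher and 48 lower. After another quantile normalization the medians of the 4 bins were 0.01, 0.02, 0.00 and -0.01. The dimmest bin then held 102 higher and 95 lower genes, and the second still held 208 higher and 99 lower. The third held 83 higher and 58 lower, and the brightest 30 and 29. The small positive differences of dim genes below are to be read beside these values.

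Of the 10 higher genes with the smallest p, all had 6 of 6 BPTF KD tumors above every control, with differences of 0.39 to 0.55. *Msln*, mesothelin, a surface protein of mesothelium and of many carcinomas, was at 9.05, 9.13 and 8.94 in controls and at 9.50, 9.46, 9.55, 9.59, 9.65 and 9.42 with BPTF KD. The groups are apart by more than the range within each, a difference of 0.49 ± 0.09 SE or 1.40-fold (adjusted p = 0.419 by limma). *Rian*, an imprinted noncoding RNA of the *Dlk1* domain, was at 4.76, 4.59 and 4.68 in controls and at 5.11 to 5.35 with BPTF KD (0.55 ± 0.09 SE). Its other probe sets gave 0.26 and -0.01. *Trpc1*, a calcium-permeable channel, was at 5.83 to 6.07 in controls and 6.36 to 6.70 with BPTF KD (0.54 ± 0.10 SE).

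*Prkcz*, an atypical protein kinase C of the cell polarity machinery, was at 5.18 to 5.29 in controls and 5.62 to 5.88 with BPTF KD (0.48 ± 0.09 SE). *Plekhg6*, an exchange factor for small GTPases, was at 0.46 ± 0.10 SE. The transcription factors *Zbtb32*, *Klf12* and *Pax9* were at 0.49, 0.50 and 0.50, each from a control mean of 4.47 to 5.42. *Tcl1b3* and the transporter *Slc6a17* were at 0.43 and 0.39 from control means of 9.37 and 6.90. All 10 thus differed by little, and the group held no shared function that a list written for this work covers, apart from *Msln* among the epithelial genes and *Rian* among the imprinted ones.

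Of the 10 lower genes with the smallest p, 9 had all 6 BPTF KD tumors below every control, with differences of -0.44 to -0.85. *Timp3*, a matrix-bound inhibitor of metalloproteases, was at 7.70, 7.69 and 7.73 in controls and at 7.24, 6.91, 7.0, 7.24, 7.13 and 6.86 with BPTF KD. The controls differed by less than 0.05 and every BPTF KD tumor lay below them (-0.64 ± 0.11 SE, 1.56-fold lower, adjusted p = 0.419 by limma). Its 3 other probe sets gave -0.48, -0.36 and 0.02. *Ptger2*, the EP2 receptor for prostaglandin E2, was at 7.11, 6.90 and 7.02 in controls and at 6.40, 6.45, 6.67, 6.35, 6.43 and 6.42 with BPTF KD (-0.56 ± 0.09 SE, 1.47-fold lower).

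*Col1a2*, a chain of type I collagen, was at 11.41, 11.50 and 11.10 in controls and at 10.56, 10.15, 10.29, 10.97, 10.59 and 10.48 with BPTF KD. This was the brightest of the 20 genes and the groups did not overlap, with replicate 4 nearest to the controls (-0.83 ± 0.17 SE, 1.78-fold lower, adjusted p = 0.551 by limma). A second probe set gave -0.79. *Emilin1*, a glycoprotein of elastic fibers, was at 7.98 to 8.24 in controls and at 7.47 to 7.98 with BPTF KD, where replicate 2 reached the lowest control (-0.51 ± 0.12 SE, and -0.03 by another probe set). *Pgf*, placental growth factor, a ligand of the receptor *Flt1*, was at 8.19 to 8.58 in controls and 7.26 to 7.99 with BPTF KD (-0.67 ± 0.16 SE).

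*Grb14*, an adaptor that binds insulin and growth factor receptors, was at 6.30 to 7.11 in controls and 5.52 to 5.98 with BPTF KD (-0.85 ± 0.17 SE, 1.80-fold lower). *Sik1*, a salt-inducible kinase, was at -0.65 ± 0.15 SE, and *Decr2*, a peroxisomal enzyme of fatty acid oxidation, at -0.65 ± 0.14 SE. *As3mt*, a methyltransferase of arsenic, was at -0.61 ± 0.14 SE and *Cyb561*, a cytochrome of secretory vesicles, at -0.44 ± 0.11 SE. All 10 kept their direction without replicate 5, at -0.43 to -0.88.

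**Figure D2:**
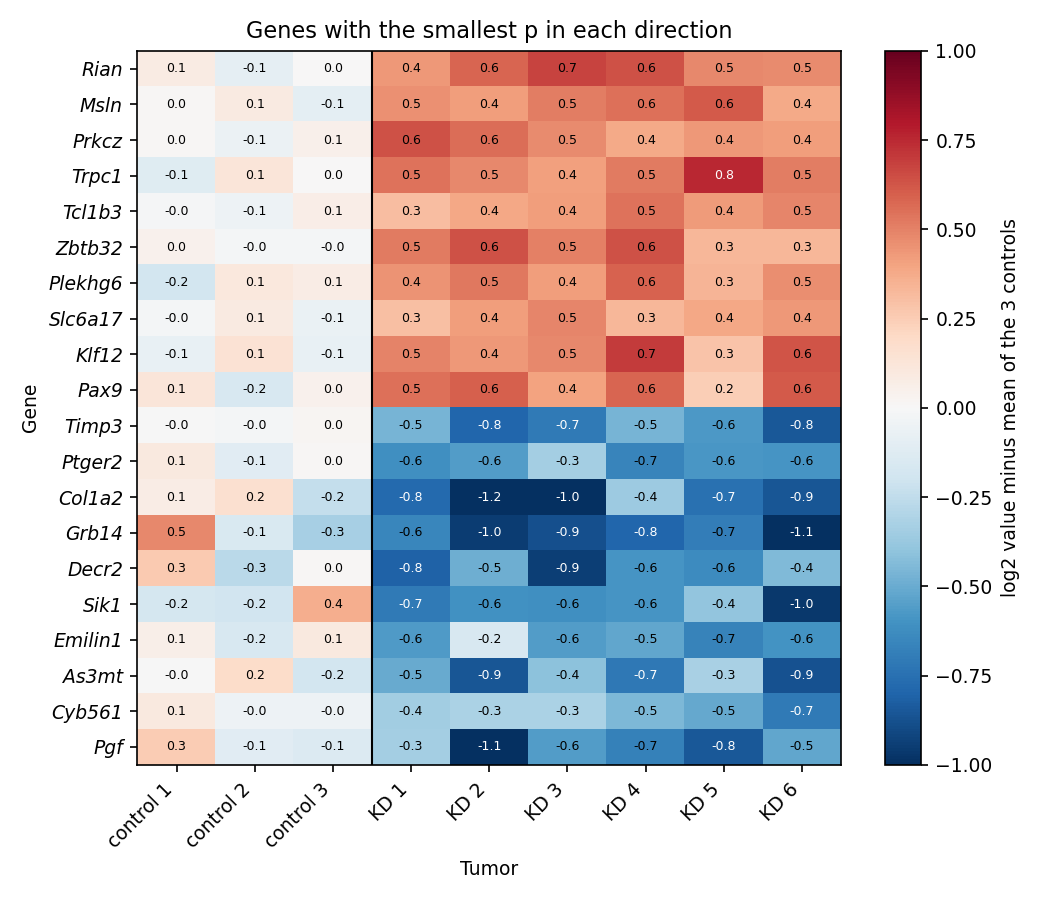
Log2 value of each tumor minus the mean of the 3 controls for the 10 higher and 10 lower genes with the smallest p. Each of the 10 higher genes, and each lower gene apart from *Emilin1*, separates all 6 BPTF KD tumors from all 3 controls.

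The lower genes *Col1a2*, *Emilin1* and *Pgf* were also lower at an unadjusted p under 0.05 in 66cl4 tumors of BALB/c mice, and their promoters are shown because BPTF acts on chromatin at gene starts. Each sequence runs from 250 bases before to 50 bases after the RefSeq start (GRCm38.p6), 5′ to 3′ on the strand of the gene. Capitals mark the letters CCAAT (bound by NF-Y) and GGGCGG (bound by Sp1), searched together with TATAAA on both strands. The *Col1a2* promoter is on the plus strand at chr6:4505368-4505667, that of *Emilin1* on the plus strand at chr5:30913536-30913835, and that of *Pgf*, the first of 2 listed starts, on the minus strand at chr12:85177264-85177563.
Col1a2: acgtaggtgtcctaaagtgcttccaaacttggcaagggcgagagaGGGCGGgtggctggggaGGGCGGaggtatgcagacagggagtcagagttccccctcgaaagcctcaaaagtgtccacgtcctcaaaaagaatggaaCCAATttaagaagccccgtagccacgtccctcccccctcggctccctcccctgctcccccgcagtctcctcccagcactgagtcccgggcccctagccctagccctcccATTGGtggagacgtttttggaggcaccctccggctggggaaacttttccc
Emilin1: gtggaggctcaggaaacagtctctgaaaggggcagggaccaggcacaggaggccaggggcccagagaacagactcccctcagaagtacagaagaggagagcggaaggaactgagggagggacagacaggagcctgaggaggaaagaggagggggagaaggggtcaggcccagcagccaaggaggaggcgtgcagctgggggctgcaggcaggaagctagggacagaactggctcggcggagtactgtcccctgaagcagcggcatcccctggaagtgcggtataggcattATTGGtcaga
Pgf: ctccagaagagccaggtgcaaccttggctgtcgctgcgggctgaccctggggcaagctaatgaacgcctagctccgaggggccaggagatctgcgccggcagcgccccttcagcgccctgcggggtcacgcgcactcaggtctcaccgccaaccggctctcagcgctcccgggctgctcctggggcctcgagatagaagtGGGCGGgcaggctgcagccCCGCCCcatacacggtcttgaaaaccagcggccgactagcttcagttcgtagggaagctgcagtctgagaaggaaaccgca
*Col1a2* holds 2 matches of CCAAT and 2 of GGGCGG, *Emilin1* holds 1 of CCAAT, *Pgf* holds 2 of GGGCGG, and none holds TATAAA. Of 32851 promoters of the same length, 37.4% hold CCAAT, 35.7% GGGCGG and 13.6% TATAAA. The 3 have no motif of the search in common, and the arrays do not say where BPTF was bound.

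The largest differences were in genes whose levels varied widely within a group. Of 29 genes over 1 log2 unit in size, 24 were lower and 5 higher. Some of these had a p over 0.05, and *Pof1b*, *Lgals7*, *Muc15*, *Sprr2f* and *Epcam* were the 5 largest lower ones with a p under 0.05. *Pof1b*, an actin-binding protein of epithelial junctions, was at 6.23, 8.13 and 3.91 in controls and at 3.41 to 4.48 with BPTF KD (-2.23 ± 0.67 SE, 4.70-fold lower). *Lgals7*, galectin-7, made in stratified epithelium, was at 9.94, 11.02 and 7.30 in controls and at 6.97 to 7.39 with BPTF KD (-2.23 ± 0.60 SE). Control 3 was thus at the level of the BPTF KD tumors for both genes, while controls 1 and 2 stood above them. Without control 3, both passed after adjustment (-3.32 and -3.29, adjusted p = 0.0444 and 0.0013 by limma), as did *Wfdc18* and *Wfdc21*, and these were the 4 genes called in that setting.

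Other epithelial genes were also lowest in control 3 among the controls. *Muc15*, a membrane mucin, was at 7.36, 5.74 and 4.22 in controls and 3.64 to 4.53 with BPTF KD (-1.84 ± 0.51 SE). *Sprr2f*, of the cornified envelope, was at 7.06, 4.82 and 4.09 and at 3.47 to 3.82 (-1.67 ± 0.48 SE). *Epcam*, an epithelial adhesion molecule, was at 8.73, 7.09 and 5.96 and at 5.10 to 6.91 (-1.40 ± 0.55 SE). *Krt14*, a keratin of basal epithelium, was at 7.10, 8.34 and 5.59 and at 5.60 to 6.09 (-1.21 ± 0.44 SE). This was by a probe set of the _x_at type, and other probe sets of *Krt14* gave -0.94 and 0.03. Against control 3 alone, the means of the BPTF KD tumors differed by -0.05 for *Pof1b*, -0.11 for *Lgals7*, -0.29 for *Muc15*, -0.44 for *Sprr2f*, -0.10 for *Epcam* and 0.21 for *Krt14*.

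Some genes, chosen after their values were seen, stood out in a single control. The skin keratins *Krt1* and *Krt10* and the p63 target *Perp* were at 8.59, 10.84 and 8.31 in control 2, and no other tumor was above 4.51, 7.89 and 4.55. *Elf5*, a factor of the mammary alveolus, was at 7.01 in control 1 and at most 4.24 elsewhere. *Acta1* of skeletal muscle was at 8.29 in control 2 and 8.35 in BPTF KD tumor 4, and at most 5.72 elsewhere, and *Alas2* of red cells was at 8.39 in control 3 and at most 5.97 elsewhere. Skin, gland and muscle genes thus varied between single tumors, and the part of such tissue in the epithelial differences was not tested. *Krt8* stayed at 13.07 to 13.39 in all 9.

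Of 30 measured epithelial keratin and adhesion genes, 3 were higher and 3 lower at an unadjusted p under 0.05, with a median of -0.08 against 0.01 for all genes. The lower members were *Epcam*, *Krt14* and *Cldn1*, a tight junction protein (-0.58 ± 0.19 SE). The higher ones were *Msln* and the desmosomal cadherins *Dsg2* (0.23 ± 0.09 SE) and *Dsc2* (0.25 ± 0.10 SE), both dim and both negative by another probe set (-0.6 and -0.25). None of 17 mammary and milk genes had a p under 0.05, and their median was -0.18.

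The 5 largest higher differences among genes with an unadjusted p under 0.05 were each carried by some of the BPTF KD tumors. *Inmt*, an indolethylamine methyltransferase, was at 8.62, 8.61 and 10.12 in controls and at 8.96, 10.21, 10.04, 12.52, 11.11 and 13.16 with BPTF KD (1.88 ± 0.82 SE, 3.69-fold higher). *Naalad2*, a peptidase, was at 5.75 to 6.77 in controls and at 6.44, 7.09, 6.19, 8.70, 8.07 and 9.27 (1.40 ± 0.63 SE). For both, replicates 4, 5 and 6 were far above the controls and replicates 1 to 3 were near them. The labels do not give the hairpin of each tumor, so hairpin and tumor cannot be told apart here. The mean 3′ to 5′ gap of actin and *Gapdh* split the same tumors, at 0.7 to 0.755 in 1 to 3 and 0.45 to 0.575 in 4 to 6. A link of RNA integrity to these 2 genes was not tested. *Mgp*, matrix Gla protein, which binds calcium and BMPs, was at 9.67 to 10.60 in controls and at 12.48, 9.42, 11.93, 11.62, 12.25 and 11.30 (1.45 ± 0.56 SE). *Islr*, a marker of mesenchymal stroma, was at 9.19 to 9.30 and at 8.96, 10.06, 10.46, 10.84, 11.74 and 10.81 (1.23 ± 0.45 SE). *Col10a1*, a short-chain collagen, was at 4.51 to 4.86 and at 5.69, 4.51, 5.34, 5.18, 6.96 and 6.29 (0.99 ± 0.43 SE). In each of the 5 at least 1 BPTF KD tumor lay within or below the controls.

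**Figure D3:**
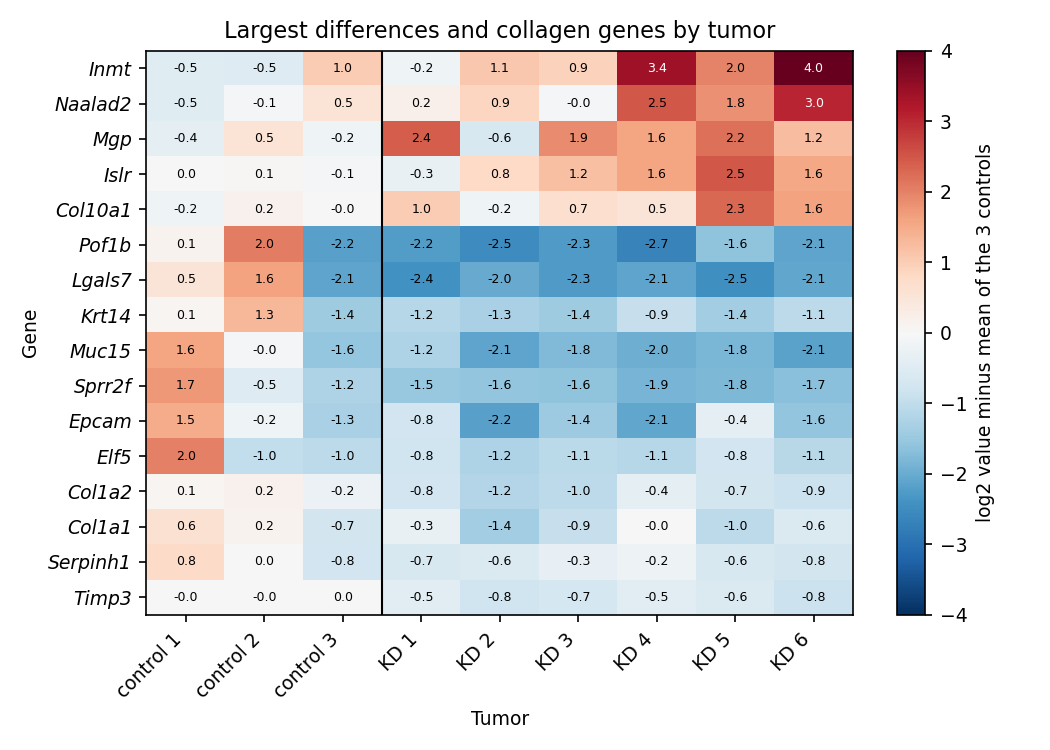
Log2 value of each tumor minus the mean of the 3 controls for the genes with the largest differences and for collagen genes. *Inmt* is up to 4.0 above the controls in BPTF KD tumor 6, and the epithelial genes *Pof1b* to *Elf5* are high in control 1, control 2 or both, but not in control 3.

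A few genes that build the matrix were lower at an unadjusted p under 0.05. Of 20 collagens, 2 were lower and 1 higher at this level (median -0.05). Beside *Col1a2*, *Col12a1*, which coats fibrils, was at -0.36 ± 0.13 SE, and *Col15a1*, of basement membranes, at 0.34 ± 0.11 SE. *Col1a1*, the partner chain of *Col1a2*, was at 8.30, 7.85 and 6.95 in controls and at 6.32 to 7.68 with BPTF KD, so the groups overlapped (-0.71 ± 0.33 SE, and -0.13 by another probe set). Where 2.32% of all genes were lower and 5.36% higher, 2 of 14 genes of collagen processing were lower and 0 higher. These were the prolyl hydroxylase *P3h1* (-0.30 ± 0.11 SE) and the crosslinking oxidase *Loxl1* (-0.32 ± 0.14 SE). *Serpinh1*, the collagen chaperone, was at 10.65, 9.91 and 9.14 in controls and 9.15 to 9.69 with BPTF KD (-0.53 ± 0.26 SE).

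Of 25 fibroblast genes, 1 was lower, *Eln*, elastin, at 8.07, 8.07 and 8.02 in controls and at 7.10 to 8.05 with BPTF KD (-0.47 ± 0.18 SE). Among 14 pericyte and smooth muscle genes, the myosin light chain *Myl9* was lower (-0.66 ± 0.21 SE) and *Synpo2*, of contractile cells, higher (0.26 ± 0.11 SE). Of 25 metalloproteases and inhibitors, *Timp3* and the neutrophil collagenase *Mmp8* (-0.28 ± 0.09 SE) were lower. *Mmp12*, macrophage elastase, was at 8.0, 8.52 and 6.86 in controls and at 9.21, 8.92, 9.82, 9.39, 7.63 and 7.74 (0.99 ± 0.51 SE), and *Mmp13*, a collagenase, was at 0.58 ± 0.28 SE, neither with a p under 0.05. *Mmp2*, which the study discusses, was at 8.71, 8.08 and 6.64 in controls and 7.04 to 7.84 with BPTF KD (-0.39 ± 0.37 SE).

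Among signals, the list of prostaglandin and related lipid genes held 4 lower and 1 higher of 17 at an unadjusted p under 0.05. Of all genes, 2.32% were lower and 5.36% higher. Of the 17, 3, or 17.6%, had all BPTF KD tumors below all controls, where 1.05% of all genes did. *Ptger2*, 1 of the 4, was already among the 10 lower genes with the smallest p. The list was chosen with earlier results known, so these shares are a description. The members did not point one way. *Ptgs2*, cyclooxygenase 2, which makes the precursor, was at 7.96, 8.71 and 9.01 in controls and at 9.77, 9.25, 9.73, 9.01, 9.29 and 8.43 with BPTF KD (0.69 ± 0.30 SE). The receptors *Ptger2* and *Ptger4* (-0.27 ± 0.12 SE), the degrading enzyme *Hpgd* (-0.61 ± 0.27 SE) and the lipase *Pla2g7* (-0.47 ± 0.15 SE) were lower. *Ptger2* and *Ptger4* bind the same ligand, prostaglandin E2. The list median was -0.04.

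In a list of EGF family receptors, ligands and regulators, 2 of 15 were lower and 2 higher, beside 2.32% and 5.36% of all genes. The lower ones were *Erbb3* and the adaptor *Grb14*, described above. *Egfr* itself was at 7.07 to 7.15 in controls and 7.33 to 7.44 with BPTF KD (0.27 ± 0.08 SE), though its probe set of highest spread gave -0.43. *Tgfa*, a ligand of *Egfr*, was at 0.26 ± 0.11 SE. *Erbb3*, which pairs with other receptors of the family, was at 6.91 to 7.23 in controls and 6.42 to 6.91 with BPTF KD (-0.41 ± 0.12 SE). Of 26 Wnt genes, 3 were lower and 0 higher, beside 2.32% and 5.36% of all genes. These were *Ccn4*, a Wnt-induced matrix protein (-0.59 ± 0.17 SE), *Dkk3*, of the Dickkopf family (-0.44 ± 0.15 SE), and the ligand *Wnt5b* (-0.34 ± 0.14 SE). The Wnt list median was -0.02, close to that of all genes.

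Vessel genes were mixed. Of 19 endothelial genes, *Tek*, the receptor for angiopoietins, was lower with no overlap (-0.49 ± 0.14 SE), and *Flt1*, a receptor for VEGF and *Pgf*, was higher (0.33 ± 0.12 SE). Of 21 angiogenic factors, *Pgf* was lower and *Pdgfa*, a ligand for fibroblast receptors, higher in 6 of 6 tumors (0.24 ± 0.08 SE). *Vegfc*, a lymphatic growth factor, was at -0.37 ± 0.18 SE. *S100b*, a Schwann cell protein, was at 7.34, 6.41 and 7.29 in controls and 7.35 to 7.85 with BPTF KD (0.63 ± 0.20 SE), and with *L1cam* and *Sox10* it made 3 of 10 nerve genes higher (median 0.21), where 5.36% of all genes were.

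The measured genes that act on heparan sulfate, a sugar chain that activating NK receptors can bind, differed little. Of 38 enzymes in the list, 29 were measured. *Hpse*, heparanase, and *Ndst1*, which the study discusses, were not measured here. Of 29 enzymes, 1 had a p under 0.05, the sulfotransferase *Hs3st3a1* (0.27 ± 0.11 SE, from a dim control mean of 3.92), and the median was 0.01. The sulfotransferase *Ndst3* was at 4.98, 5.26 and 5.59 in controls and 4.81 to 5.50 with BPTF KD (-0.16 ± 0.17 SE). Among 15 core proteins, *Hspg2*, perlecan, was higher (0.29 ± 0.11 SE). Of 20 ligands of activating NK receptors in the list, 10 were measured, and none of the ligands of NKG2D was among them. Of the 10, *Cd70* was higher, from 3.49 to 3.76, while *Pvr*, a ligand of DNAM-1, was at -0.05 ± 0.11 SE.

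MHC class I genes were bright and close to the controls. None of 18 had a p under 0.05, and the median was -0.05. *H2-K1* was at 13.12 and 13.05 in the group means (-0.06 ± 0.11 SE), *H2-D1* at 12.87 and 12.83 (-0.04 ± 0.12 SE) and the light chain *B2m* at 13.98 and 13.88 (-0.10 ± 0.12 SE). All 3 changed sign under other settings.

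The interferon gamma response list, which includes *Ifng*, held 3 lower and 1 higher of 22 genes, beside 2.32% and 5.36% of all genes. The list median was -0.05. *Gbp8*, a guanylate-binding protein, was at 8.04, 6.97 and 7.01 in controls and at 6.03, 7.22, 5.74, 6.01, 6.22 and 5.78 with BPTF KD (-1.17 ± 0.33 SE), with replicate 2 alone within the controls. *Gbp7* of the same family was at -0.36 ± 0.12 SE and *Ifng* itself at -0.24 ± 0.10 SE from a dim control mean of 3.97. *Cxcl11*, a chemokine for T cells, was at 5.37 to 5.80 in controls and at 6.52, 6.35, 6.99, 7.27, 5.57 and 5.75 (0.89 ± 0.34 SE). Of 27 type I interferon genes, the kinase *Eif2ak2* was lower (-0.31 ± 0.10 SE) and the antiviral enzyme *Rsad2* higher (0.57 ± 0.18 SE).

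Myeloid genes were also split. Of 31 macrophage genes, the integrin *Itgam* (-0.35 ± 0.12 SE) and the Fc receptor *Fcgr3* (-0.38 ± 0.17 SE) were lower and *Arg1*, arginase 1, higher, at 10.85, 10.97 and 9.80 in controls and 10.65 to 11.77 with BPTF KD (0.74 ± 0.29 SE). *Adgre1*, which encodes the macrophage marker F4/80, was below all controls in 6 of 6 tumors (-0.25 ± 0.12 SE, with a p over 0.05). Of 17 neutrophil genes, 2 were lower, *Mmp8* and the growth factor receptor *Csf3r* (-0.41 ± 0.14 SE), and 1 higher. Among 24 chemokines and receptors, 3 were lower, among them *Cxcr4* (-0.56 ± 0.21 SE) and the neutrophil attractant *Cxcl5* (-0.55 ± 0.23 SE), and 1 higher, *Ccl20* (0.32 ± 0.12 SE). The complement protease *C1s1* was lower with no overlap (-0.50 ± 0.13 SE) and *Hc*, complement C5, higher (0.29 ± 0.08 SE) from a level of 4.17.

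The T cell and NK cell lists had the highest medians after the nerve genes, at low median levels in a host without these cells. Of 18 T cell genes, 5 (27.8%) were higher and 0 lower at an unadjusted p under 0.05, where 5.36% of all genes and 318 of the 3100 in the dimmest bin were higher. The list had a median of 0.18, or 0.11 after another quantile normalization. *Zap70*, a T cell kinase, was at 8.07 to 8.22 in controls and 8.33 to 8.51 with BPTF KD (0.30 ± 0.08 SE). *Cd3e* was at 5.89 to 6.05 and 6.10 to 6.34 (0.22 ± 0.09 SE), *Cd4* at 0.27 ± 0.11 SE, the adaptor *Lat* at 0.23 ± 0.09 SE and the checkpoint receptor *Ctla4* at 0.27 ± 0.10 SE. The median level of the 18 T cell genes was 5.39, in the dimmest bin of genes, whose own median difference was 0.09. *Zap70* and *Cd3e* were brighter than that bin. *Zap70* lay in the third bin, with 39 of 3099 genes higher and a median difference of -0.05. *Cd3e* lay in the second, with 284 of 3097 higher. Of 12 B cell genes, *Fcer2a*, *Pax5* and *Ms4a1* were higher (0.31, 0.35 and 0.29), each from a control mean of 4.01 to 4.46, and *Ebf1*, which fat and stromal cells also express, was lower (-0.45 ± 0.16 SE). None of 21 NK genes had a p under 0.05, with a median of 0.12. *Ncr1*, which encodes NKp46, was at 4.22 to 4.63 in controls and 4.35 to 5.08 with BPTF KD.

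Most lists of housekeeping and growth genes were close to 0. Of 21 lysosome and cathepsin genes, 18 were below 0, with a median of -0.12 and 0 at an unadjusted p under 0.05. Of 32 cell cycle genes, 1 was lower, the kinesin *Cenpe* (-0.39 ± 0.17 SE), with a median of -0.08, and *Ube2c* and *Cdk4* lay below all controls in 6 of 6 tumors at -0.32 and -0.18. None of 26 replication and repair genes, 32 respiratory chain genes or 29 ribosomal protein genes had a p under 0.05, with medians of -0.01, -0.02 and 0.00. Of 15 heat shock genes, 2 were lower, *Hsph1* at 9.82, 9.86 and 9.46 in controls and 8.80 to 9.41 with BPTF KD (-0.54 ± 0.14 SE), and *Hspb1* (-0.40 ± 0.11 SE), both with no overlap. No overlap in this direction was seen in 13.3% of the list and 1.05% of all genes, and 2.32% of all genes were lower. Of 28 fatty acid oxidation genes, *Decr2* and the carnitine transferase *Cpt2* (-0.19 ± 0.08 SE) were lower and *Ppara* higher (0.19 ± 0.08 SE). *Pparg*, which directs fat cell differentiation, was the 1 lower gene of 17 in the adipocyte list (-0.56 ± 0.20 SE). Over all 53 lists the medians ran from -0.18 to 0.21, 6 were at least 0.1 in size, and 10 changed sign when the array medians were subtracted.

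**Figure D4:**
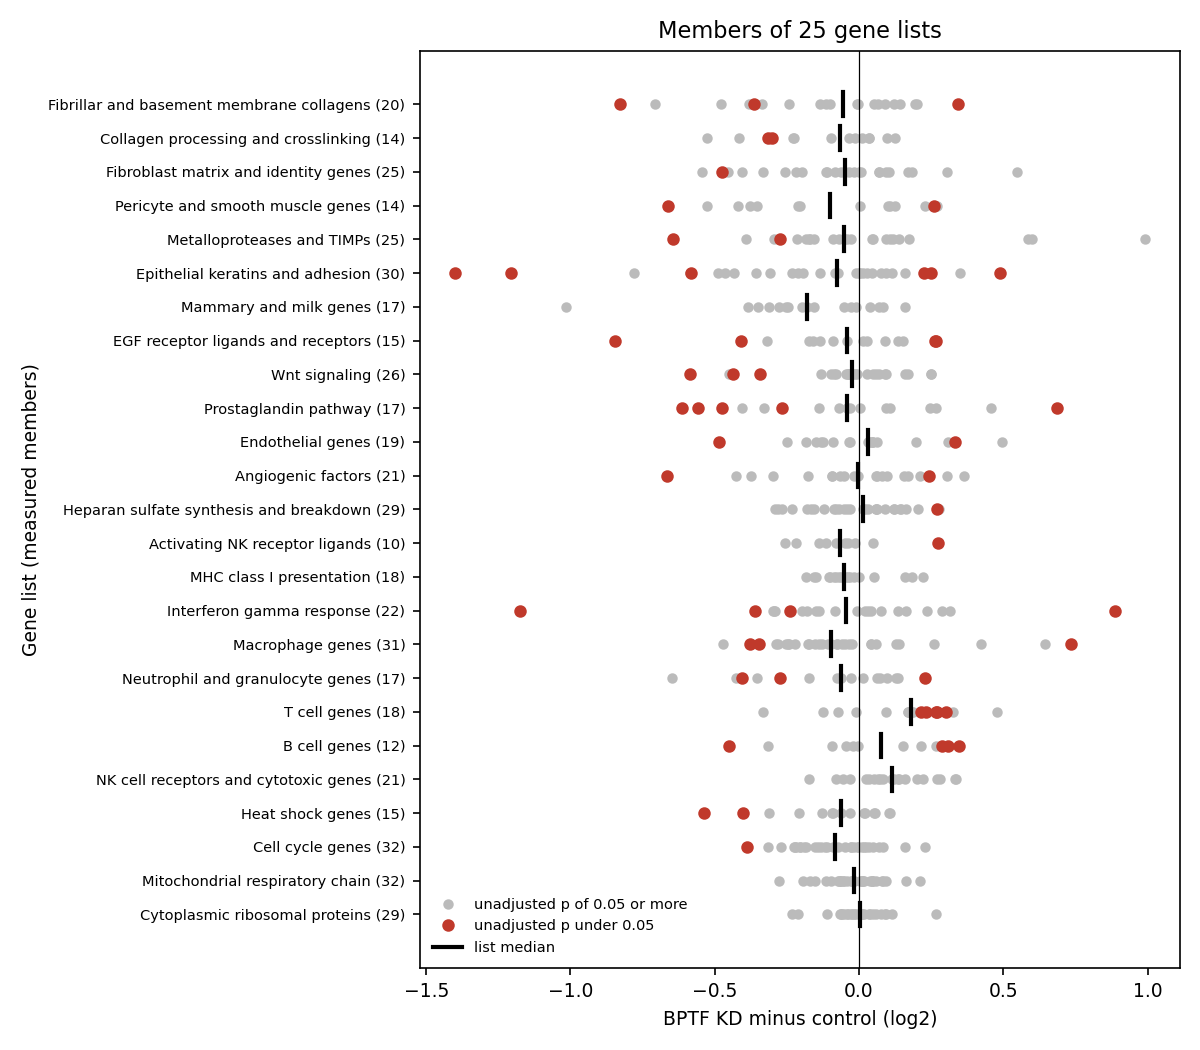
Difference with BPTF KD (log2) of every measured member of 25 gene lists, with the list median as a bar and members with an unadjusted p under 0.05 in red. The medians lie between -0.18 for mammary and milk genes and 0.18 for T cell genes, and members of most lists lie on both sides of 0.

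To see whether the same genes moved where lymphocytes are present, the tumors were set beside 66cl4 tumors of BALB/c mice, which share no sample with them. There, 12.4% of all genes were higher and 13.4% lower at an unadjusted p under 0.05. Of the 288 genes lower in NSG mice, 60 (20.8%) were lower in BALB/c mice and 20 (6.94%) higher. The 60 are 3.61% of those lower in BALB/c mice. Of the 664 genes higher in NSG mice, 57 (8.58%) were higher in BALB/c mice, under the share of all genes, and 4 (0.602%) lower.

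Of the 10 higher genes with the smallest p, 7 were above 0 in BALB/c tumors, and of the 10 lower, 7 below. *Col1a2* was at -0.83 in NSG and -0.69 in BALB/c tumors, *Emilin1* at -0.51 and -0.58, *Pgf* at -0.67 and -0.42, *Ccn4* at -0.59 and -0.53, *C1s1* at -0.50 and -0.60, and *Trpc1* at 0.54 and 0.42. Other leading genes did not repeat, with *Timp3* at -0.64 and 0.095, *Ptger2* at -0.56 and 0.245, *Grb14* at -0.85 and -0.07, and *Msln* at 0.49 and -0.04. *Gbp8* was at -1.17 in NSG and 1.41 in BALB/c tumors, and *Ifng* at -0.24 and 1.33. The difference between hosts was tested for every gene as an interaction, and 0 of 12394 (0.0%) passed an adjusted p of 0.05 by limma. The smallest was 0.188, and 1476 genes had an unadjusted p under 0.05. For *Gbp8* the adjusted p was 0.258 and for *Ifng* 0.268. The 9 tumors per host therefore did not show any gene to differ between hosts after adjustment.

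Against 67NR tumors in the same host, taken on day 21, 119 genes passed the interaction, 47 (0.379%) higher and 72 (0.581%) lower in 66cl4 than in 67NR. Of the 20 genes with the smallest p in 66cl4, 8 passed. The 6 lower ones were *Col1a2* (1.14 in 67NR, adjusted p = 0.0129 by limma), *Grb14* (1.28), *Decr2* (0.53), *Emilin1* (1.12, adjusted p = 0.00191), *As3mt* (0.26) and *Pgf* (0.40), and the 2 higher ones were *Trpc1* (-0.73) and *Zbtb32* (-0.31). All 8 thus had opposite signs in the 2 lines. These genes were picked by their values in 66cl4, which enter the interaction, so their count is a description. *P3h1* (-0.30 and 0.77) and *Ccn4* (-0.59 and 1.71) passed as well. Harvest day goes with the cell line and cannot be told apart from it, and a fit of all 36 tumors called 5 genes in place of 119. With 1 tumor left out the count was 36 to 317, lowest without 67NR control 3 and highest without 67NR control 2.

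**Figure D5:**
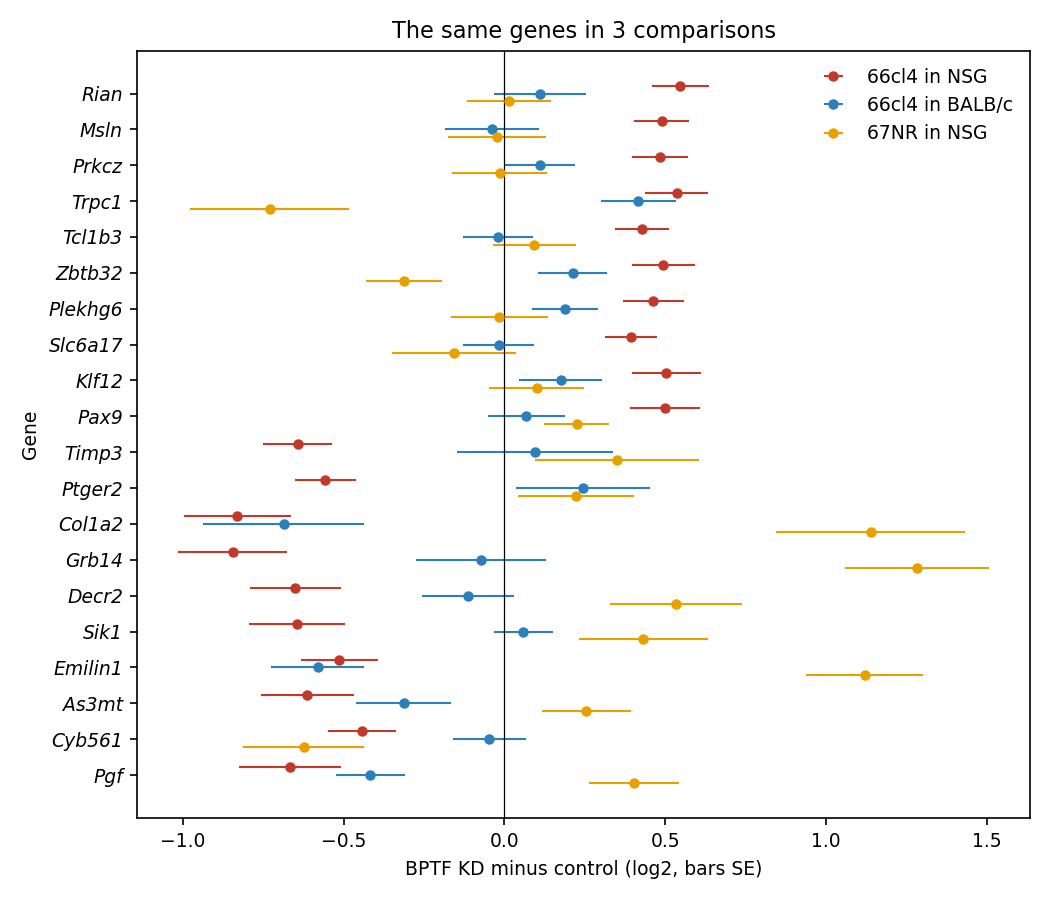
Difference with BPTF KD (log2, bars SE) of the 20 genes with the smallest p in 66cl4 tumors of NSG mice, beside 66cl4 in BALB/c and 67NR in NSG mice. *Col1a2*, *Emilin1* and *Pgf* lie left of 0 in both hosts of 66cl4 and right of 0 in 67NR.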

How the data were processed

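RNA of 36 tumors was measured on Affymetrix mouse arrays, of which the 9 66cl4 tumors of NSG mice are described. The authors removed necrotic tissue, labelled 500 ng of total RNA and deposited expression values on the log2 scale from RMA, a tool named, with no version, in the submitters' processing notes. RMA draws all arrays to one distribution and has no floor for genes that are not expressed, so low values need not be expression.

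Among the 22690 probe sets, 20393 had exactly 1 gene symbol, 691 had more and 1606 had none, and 20364 were updated by Entrez ID with RefSeq names. Where a gene had several such probe sets, the one with the highest mean over all tumors stood for it, which gave 12394 genes. Of these, 1189 were read by probe sets of the _x_at or _s_at type, which may also hybridize with transcripts of other genes. Values were used as deposited, without a filter. BPTF KD and control tumors were compared with limma 3.58.1 (R 4.3.3). P values were adjusted by Benjamini and Hochberg's method over all 12394 genes, and 0.05 was the threshold. Differences between hosts and between lines were interactions in fits of 18 tumors. *Bptf* and RNA integrity were compared by exact permutation, two-sided. The number of arrays limits the precision, and the median SE was 0.124. In simulated data for this comparison, 12394 genes were drawn independently from normal distributions with their own means and spreads. With 100 genes changed by 1 log2 unit and 100 by 2, 80% and 98% were recovered, with 12 false calls. Spread shared between genes and single outlying tumors were not simulated, so these shares need not hold for the real tumors. Python 3.11.15, numpy 2.4.6, pandas 2.3.3 and matplotlib 3.10.9 made tables and figures.

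Named genes were the 10 with the smallest p and the 5 with the largest difference among genes at an unadjusted p under 0.05, in each direction, NURF genes, up to 4 members per list, genes the study discusses and cell type markers. Others are said to be chosen after their values were seen. The 53 lists held 1041 measured genes, and members and lists were chosen with earlier results of these data known. Replicate numbers did not pair the tumors, as deviations of same-numbered tumors correlated at 0.207, -0.09 and 0.092. Alternatives tried were dropping dim genes, a fit of all tumors, the t-test of the methods, other scalings, a replicate block, other probe sets, array weights, a trended robust fit, an RNA integrity covariate, the false discovery rate of 16% in the study's table heading and leaving out each tumor.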

Additional observations from a re-analysis of the deposited data

Results flagged for a closer look

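In 9 of 129 genes and probe sets examined, 1 BPTF KD tumor stood apart from the other 5 by Dixon's ratio (gap over range, at the 95% level), and chance flags about 1 in 20. *Ptger2* was apart by 0.687, with replicate 3 nearest to the controls, and *Emilin1* by 0.706 and *Gbp8* by 0.676, both with replicate 2 within the controls. The others were *Birc3* (0.705), *Lat* (0.667), *Ebf1* (0.776), *Pax5* (0.717), *Krt1* (0.75) and *Acta1* (0.819). For *Acta1* this was replicate 4, at 8.35.

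The BPTF KD difference of 15 named genes differed between 66cl4 and 67NR tumors in NSG mice by the interaction. Over all genes, 0.379% were called higher and 0.581% lower in 66cl4. Most of the 15 were named by their values in 66cl4, which enter the interaction, so their count and p values are a description. The adjusted p by limma was 0.00191 for *Grb14*, *Emilin1*, *Ebf1* and *Krt8*, 0.0124 for *Zbtb32*, 0.0129 for *Col1a2*, 0.0191 for *P3h1*, 0.0203 for *Ccn4*, 0.0266 for *Pgf*, 0.0284 for *Cpt2*, 0.0347 for *Krt14*, 0.0371 for *Trpc1* and *Decr2*, 0.0456 for *Hc* and 0.0477 for *As3mt*. *Krt8* was at 0.02 in 66cl4 and 1.68 in 67NR, and *Ebf1* at -0.45 and 1.26.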

How the results depend on the processing

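The count of 0 genes past an adjusted p of 0.05 held in every planned setting but 2. Array weights called 1389 (942 higher, 447 lower), giving control 2 a weight of 7.19 and the other tumors 0.27 to 1.55, and leaving out control replicate 3 called 4 (*Lgals7*, *Pof1b*, *Wfdc18* and *Wfdc21*, all lower). The methods' t-test called 0 after adjustment, and 240 higher and 65 lower at the unadjusted level in the study's heading.

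Genes higher at an unadjusted p under 0.05 numbered 323 without the dimmest 25%, 423 after quantile normalization, 1223 over all probe sets and 2334 with array weights, and 442 to 1077 with 1 tumor left out. The lowest was without control replicate 2 and the highest without BPTF KD replicate 5. Lower genes numbered 139 in the fit of all 36 tumors, 163 with array medians subtracted, 621 over all probe sets, 1512 with array weights and 443 with the RNA integrity covariate, and 231 to 507 with 1 tumor left out (469 without control replicate 1, 507 without BPTF KD replicate 5). With the replicate block 0 genes passed, 709 were higher and 694 lower. The replicate numbers do not pair these tumors. With array medians subtracted, the split was 951 higher to 163 lower, in place of 664 to 288, and after quantile normalization 423 to 281.

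The host difference called 771 genes with array weights and 0 to 6 with 1 tumor left out. The cell line difference called 5 in the fit of all 36 tumors, 184 with the replicate block, 1455 with array weights and 36 to 317 with 1 tumor left out, so its count rests on single tumors, among them 67NR control replicates 1 (44), 2 (317) and 3 (36) and 66cl4 control replicates 1 (41) and 2 (39). The *Bptf* difference was 0.297 by the probe set with a control mean of 6.38 and -0.399 to -0.281 with 1 tumor left out. The RNA integrity difference was -0.056 to 0.005.

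Of 1785 values of named genes under other settings, 25 changed sign. By another probe set this held for *Smarca5* (-0.043), *Rbbp4* (-0.15), *Dsg2* (-0.6), *Dsc2* (-0.25), *Egfr* (-0.43), *H2-K1* (0.15), *H2-D1* (0.087) and *Cpt2* (0.002). With array weights it held for *Smarca5* (-0.058), *Rbbp7* (-0.073), *H2-K1* (0.013) and *H2-D1* (0.11), with the replicate block for *Rbbp7* (-0.047), *H2-K1* (0.037) and *B2m* (0.05), after quantile normalization for *Pvr* (0.009) and with array medians subtracted for *H2-D1* (0.005). With 1 tumor left out, the range crossed 0 for *Smarca5* (-0.027 to 0.075), *Rbbp7* (-0.017 to 0.098), *Mmp2* (-0.978 to 0.057), *H2-K1* (-0.135 to 0.05) and *H2-D1* (-0.127 to 0.088). The causes were not tested.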
